A study of Homo sapiens with 4 samples.

Results

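The genes described here form the core of the G1 restriction point, the D cyclins CCND1, CCND2 and CCND3, their kinases CDK4 and CDK6, the CIP/KIP inhibitors CDKN1B (p27) and CDKN1C (p57), and the retinoblastoma family RB1, RBL1 (p107) and RBL2 (p130). They are 10 of the 19775 genes named on the array and are defined by a list of gene symbols. All 30 probe sets annotated to exactly 1 of these symbols were examined. All groups are SK-BR-3, a HER2-amplified human breast cancer cell line whose own p53 is a missense mutant. All had gone through puromycin selection for either p53 shRNA or its control, for which the labels use both the term control shRNA and the term empty vector. They then received siRNA against Pontin (RUVBL1) or stayed in an arm named sicon in the titles, and total RNA was taken after 24 h. Each of the 4 groups (neither knockdown, called control cells here, p53 knockdown alone, Pontin knockdown alone, and both) had 1 Affymetrix array, so no difference carries a replicate error, and 1 selected population stands for each shRNA.

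D cyclins are made in response to growth factor signals and activate CDK4 and CDK6, which phosphorylate the RB proteins. Phosphorylated RB proteins release E2F factors, and the genes for DNA replication are then transcribed. CIP/KIP proteins block cyclin-bound CDK2, and they also help D cyclins assemble with their kinases. RBL1 and RBL2 join E2F4 in the DREAM complex, which silences cell cycle genes in resting cells. In HER2-amplified breast cells, receptor signalling keeps cyclin D1 high and p27 low, and this pathway is the target of CDK4/6 inhibitors.

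Each knockdown was read in 2 matched pairs that share no array with each other. The first p53 pair set p53 shRNA against control cells, and the second set both knockdowns against Pontin knockdown alone. The first Pontin pair set Pontin siRNA against control cells, and the second set both knockdowns against p53 knockdown alone. The p53 and Pontin pairs do share arrays, so values for the 2 knockdowns are only set side by side. Levels are linear MAS5 signals, differences are log2 signal ratios, and a probe set counts as called where both ratios have the same sign and reach 1.5-fold (0.58 in log2). Calls were made on probe sets kept by a filter, those whose mean signal reached 15.4, the array-wide median. Those at or above 110.9, the 75th percentile, are called bright. Of the 30 member probe sets, 20 were kept and 11 were bright. Levels of different probe sets are not compared, since each binds its target with its own strength.

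RUVBL1 had signals of 477.7 in control cells, 398.2 under p53 shRNA, 127.4 under Pontin siRNA and 65.8 under both, so the siRNA target was lower in both arms that received it. The array with both knockdowns stood apart: its median signal was 19.6, against 15.9 to 16.5 on the others, and its 18 hybridization control probe sets averaged 1.42 times those of the control array. The first ratio of each pair below does not use that array. Luminal and HER2 amplicon markers (ERBB2, GRB7, EPCAM and keratins) were bright at 6 of 7, with summed signals from 34685 to 40476, while CDH1 stayed between 1.8 and 13. Of markers of other cells, 2 of 3 basal genes were annotated and summed to 12 to 43.9, and 3 of 4 leukocyte genes to 9.2 to 19.5. Endothelial genes summed to 98.9 to 149.6 and fibroblast genes to 182.4 to 205, the last mostly from COL1A1. Each sum runs over different probe sets, so the lists are not compared with each other. In a bulk culture, fewer cells making a transcript and less transcript per cell cannot be told apart.

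Promoter sequences are shown for 4 members whose windows hold E2F motifs, E-boxes or GC boxes, to set these beside the values. They were picked for their matches and do not stand for the other members. They are RefSeq windows of GRCh38.p14, the 250 bases before an annotated start, printed on the transcribed strand, and 7 of the 10 genes had an entry. Capitals mark E2F motifs (TTTCGCGC or TTTGGCGC) in RBL1, E-boxes (CACGTG) in CDK4, and GC boxes (GGGCGG) in CCND3 and CDK6. Both strands were searched, and no marked motif overlaps another.
RBL1 (chr20:37095998-37096247, minus strand): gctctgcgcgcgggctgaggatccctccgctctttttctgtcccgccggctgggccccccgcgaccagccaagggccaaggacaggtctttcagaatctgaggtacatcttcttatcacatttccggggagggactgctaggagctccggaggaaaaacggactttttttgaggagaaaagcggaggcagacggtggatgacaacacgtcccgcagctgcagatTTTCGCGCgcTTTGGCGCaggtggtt
CDK4 (chr12:57752311-57752560, minus strand): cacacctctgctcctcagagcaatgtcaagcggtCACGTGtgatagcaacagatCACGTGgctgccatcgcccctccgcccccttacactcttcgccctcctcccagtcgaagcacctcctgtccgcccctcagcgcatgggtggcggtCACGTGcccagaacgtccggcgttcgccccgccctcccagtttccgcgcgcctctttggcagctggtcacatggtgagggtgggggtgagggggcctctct
CCND3 (chr6:42048689-42048938, minus strand): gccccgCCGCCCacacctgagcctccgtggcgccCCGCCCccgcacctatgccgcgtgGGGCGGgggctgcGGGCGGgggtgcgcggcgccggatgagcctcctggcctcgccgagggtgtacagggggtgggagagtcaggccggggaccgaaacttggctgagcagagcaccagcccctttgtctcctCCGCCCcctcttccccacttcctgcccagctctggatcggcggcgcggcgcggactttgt
CDK6 (chr7:92836574-92836823, minus strand): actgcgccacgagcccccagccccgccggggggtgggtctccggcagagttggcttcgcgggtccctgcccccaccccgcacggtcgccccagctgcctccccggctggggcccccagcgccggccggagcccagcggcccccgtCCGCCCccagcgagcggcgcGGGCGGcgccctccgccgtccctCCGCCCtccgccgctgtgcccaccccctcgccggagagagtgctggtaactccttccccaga
The RBL1 window holds 2 E2F motifs, beginning 26 and 16 bases before the start, and 0.968% of the 35116 windows of this length hold at least 1. The CDK4 window holds 3 E-boxes, beginning 216, 196 and 101 bases before the start, and 6.34% of windows hold 1 or more. GC boxes numbered 5 in the CCND3 window and 3 in the CDK6 window, and 42.6% of windows hold at least 1. The CDK4 window holds 3 GC boxes as well, which are not marked. At other annotated starts the count was lower, 2 and 0 in the other CCND3 windows and 0 in the other CDK6 window, and the array does not tell which start a transcript used. Of the 11 member windows searched, those of RB1 and RBL2 hold no motif of these types, and that of CDKN1B holds 1 GC box. A match describes letters in the window and no binding was measured.

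CCND3 was the bright D cyclin with the largest ratios. Cyclin D3 is the family member best known from lymphoid cells, and it is made in many epithelia too. Its bright probe set gave signals of 350.9 in control cells, 305.3 under p53 shRNA, 470.7 under Pontin siRNA and 416.0 under both. Both arrays with Pontin siRNA were above both arrays without it. The Pontin ratios were 0.42 and 0.45, or 1.34-fold and 1.36-fold, nearly equal in the 2 pairs and short of the 1.5-fold rule. With p53 shRNA they were -0.20 and -0.18. The other CCND3 probe set had signals from 1.5 to 14.2, below the filter, and gave Pontin ratios of 2.13 and 3.24 that rest on near-background values.

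CCND1 encodes cyclin D1, the main D cyclin of luminal breast cells. On its brightest probe set the signals were 1010.8 in control cells, 898.2 under p53 shRNA, 1137.5 under Pontin siRNA and 1159.3 under both. The other CCND1 probe set gave 715.2, 783.0, 882.0 and 823.1 in the same order. On both probe sets the 2 arrays with Pontin siRNA lay above the 2 without it. The Pontin ratios were 0.17 and 0.37 on the first and 0.30 and 0.07 on the second. With p53 shRNA the pairs differed in sign on both probe sets, between -0.17 and 0.13.

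CCND2, the gene of cyclin D2, was near background. Of its 4 probe sets only 1 was kept, with signals of 11.5, 13.8, 15.4 and 24.4 for control shRNA, p53 shRNA, Pontin siRNA and both. The array with both knockdowns was the highest, at 2.12 times control. The mean signal of 15.6 passed the filter at 15.4 only through that array. The Pontin ratios were 0.42 and 0.82 and the p53 ratios 0.26 and 0.66. The other 3 probe sets had no signal above 7.1.

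**Figure D1:**
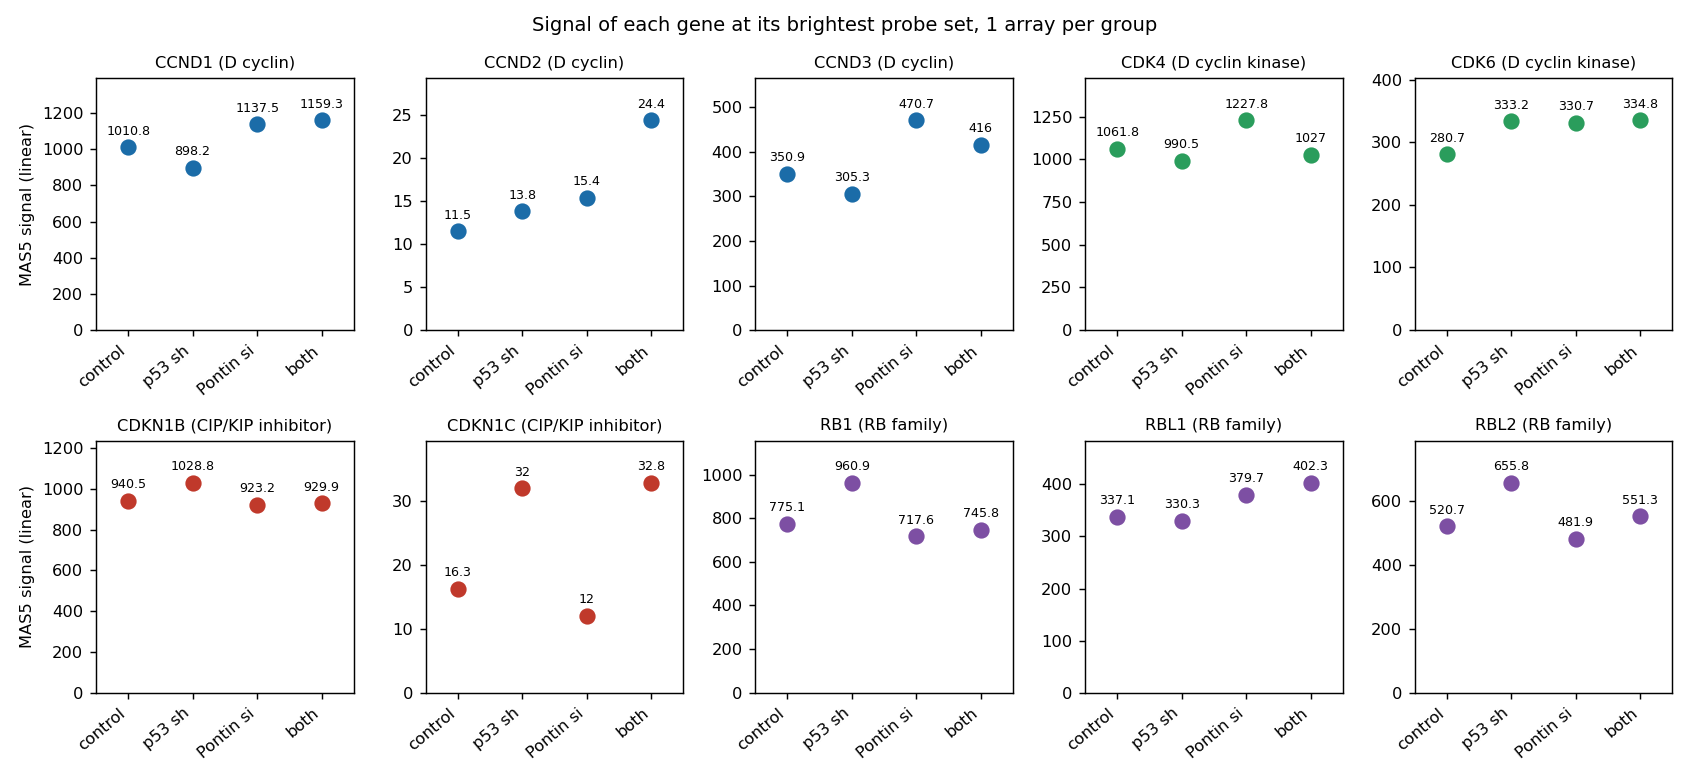
MAS5 signal (linear axis from 0) of each of the 10 genes at its brightest probe set, 1 point per array for control shRNA, p53 shRNA, Pontin siRNA and both knockdowns; there are no replicates and hence no error bars. CCND3 is higher on both arrays with Pontin siRNA (470.7 and 416.0 against 350.9 and 305.3), and CDKN1C is higher on both arrays with p53 shRNA (32.0 and 32.8 against 16.3 and 12).

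CDK4 and CDK6 are the kinases that D cyclins switch on. CDK4 had signals of 1061.8 in control cells, 990.5 under p53 shRNA, 1227.8 under Pontin siRNA and 1027.0 under both. Only the array with Pontin siRNA alone stood above the rest. The CDK4 ratios were -0.10 and -0.26 for p53 shRNA and 0.21 and 0.05 for Pontin siRNA.

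CDK6 was covered by 7 probe sets, of which 6 were kept and 3 were bright. On the probe set 224851_at the signals were 222.8 in control cells, 327.7 under p53 shRNA, 256.0 under Pontin siRNA and 351.3 under both. Both arrays with p53 shRNA were above both without it, with ratios of 0.56 and 0.46, just under the 1.5-fold rule. The other bright probe sets gave smaller values. On 224847_at, the brightest, the signals were 280.7, 333.2, 330.7 and 334.8 and the p53 ratios 0.25 and 0.02. On 224848_at they were 156.9, 195.5, 182.2 and 199.3, with p53 ratios of 0.32 and 0.13. On both of these probe sets the control array was the lowest and the other 3 were close together. Over the 6 probe sets kept, the mean p53 ratio was above 0 on all 6, from 0.13 to 0.51, and both pairs were above 0 on 5, where 29.5% of all probe sets kept were. For Pontin siRNA both pairs were also above 0 on 5 of 6, against 34.5% of all, but the second pair of the bright probe sets was only 0.01 to 0.10. Centring each array on its median, which lowers all ratios in the second pairs, left 2 of 6 above 0 in both p53 pairs, against 11.9% of all, and 1 of 6 in both Pontin pairs, against 12.6%. Under that scaling the mean Pontin ratios of the 3 bright probe sets were below 0 and their mean p53 ratios above 0. The control array enters both first pairs, so the first p53 and Pontin ratios are not independent of each other. The 6 probe sets read 1 gene on the same arrays, so they are not independent either.

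CDKN1C, an imprinted inhibitor gene, was the only member called. Its single kept probe set, 213348_at, had signals of 16.3 in control cells, 32.0 under p53 shRNA, 12 under Pontin siRNA and 32.8 under both. Both arrays with p53 shRNA were above both without it, and the ratios were 0.97 and 1.45, or 1.96-fold and 2.73-fold higher. The Pontin ratios were -0.44 and 0.04. All these signals are low. With 16 added to each signal before log2, the ratios were 0.57 and 0.80 and the call was lost, while it held after quantile and cyclic loess normalization. Of the 5 CDKN1C probe sets, 4 were above 0 in both p53 pairs and 3 passed 1.5-fold in both when the filter on signal was ignored. Without the filter 2714 of all 41091 probe sets passed it in that direction, against 293 of the 22776 kept. Low signals thus pass it more often. The probe set 213182_x_at gave 6.4, 15.8, 4.5 and 14.7, 219534_x_at gave 3.5, 20.4, 15.5 and 35.6, and 216894_x_at gave 11.4, 15, 12.5 and 20.3. Probe sets of the type marked x can bind related transcripts. The last, 219533_at, stayed between 0.7 and 1.3.

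The bright genes whose 4-array profile was nearest to CDKN1C were COX7B2, BASP1 and EGLN3. Their root mean square differences from it, on log2 signals centred over the 4 arrays, were 0.13, 0.17 and 0.20. COX7B2, a respiratory chain subunit gene, had signals of 101.3 in control cells, 195.6 under p53 shRNA, 80.7 under Pontin siRNA and 173.2 under both. With only 4 arrays, such nearness does not tie the genes together. Of 12155 bright probe sets, 27 were called higher for p53 shRNA.

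CDKN1B, whose protein p27 is controlled largely through its degradation, varied little. Its single probe set had signals of 940.5 in control cells, 1028.8 under p53 shRNA, 923.2 under Pontin siRNA and 929.9 under both. Only the p53 shRNA array stood slightly above. The ratios were 0.13 and 0.01 for p53 shRNA and -0.03 and -0.15 for Pontin siRNA.

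RB1 and RBL2 had similar signal orders on their bright probe sets. RB1, the retinoblastoma gene, had signals of 775.1 in control cells, 960.9 under p53 shRNA, 717.6 under Pontin siRNA and 745.8 under both. RBL2, whose protein p130 is most abundant in resting cells, had 520.7, 655.8, 481.9 and 551.3. In both genes the array with p53 shRNA alone was the highest and that with Pontin siRNA alone the lowest. The p53 ratios were 0.31 and 0.06 for RB1 and 0.33 and 0.19 for RBL2. The Pontin ratios were -0.11 and -0.37 for RB1 and -0.11 and -0.25 for RBL2.

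The dimmer probe sets of these genes did not repeat those orders. For RBL2 the probe set 212332_at, with signals of 85.5, 68.2, 99.1 and 77.6, gave the opposite signs, -0.33 and -0.35 for p53 shRNA and 0.21 and 0.19 for Pontin siRNA. The dim RB1 probe set 211540_s_at, with signals from 19.6 to 29.0, gave p53 ratios of 0.42 and -0.47. A direction for RB1 or RBL2 therefore rests on 1 probe set each. For p53 shRNA it also depends on the scaling. After median centring the p53 ratios of the bright probe sets were 0.30 and -0.19 for RB1 and 0.32 and -0.05 for RBL2. Quantile and cyclic loess normalization left them positive, and the Pontin ratios stayed negative throughout.

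RBL1, itself a gene under E2F control, had signals of 337.1 in control cells, 330.3 under p53 shRNA, 379.7 under Pontin siRNA and 402.3 under both on its bright probe set. Both arrays with Pontin siRNA were above both without it, with ratios of 0.17 and 0.28. The p53 ratios were -0.03 and 0.08. The other 2 probe sets kept had Pontin ratios of opposite sign in the 2 pairs, -0.09 and 0.65 on 1555004_a_at and -0.21 and 0.34 on 1559307_s_at. On 1555004_a_at the p53 shRNA array was the lowest, at 54.6 against 82.1 to 87.2 on the others.

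**Figure D2:**
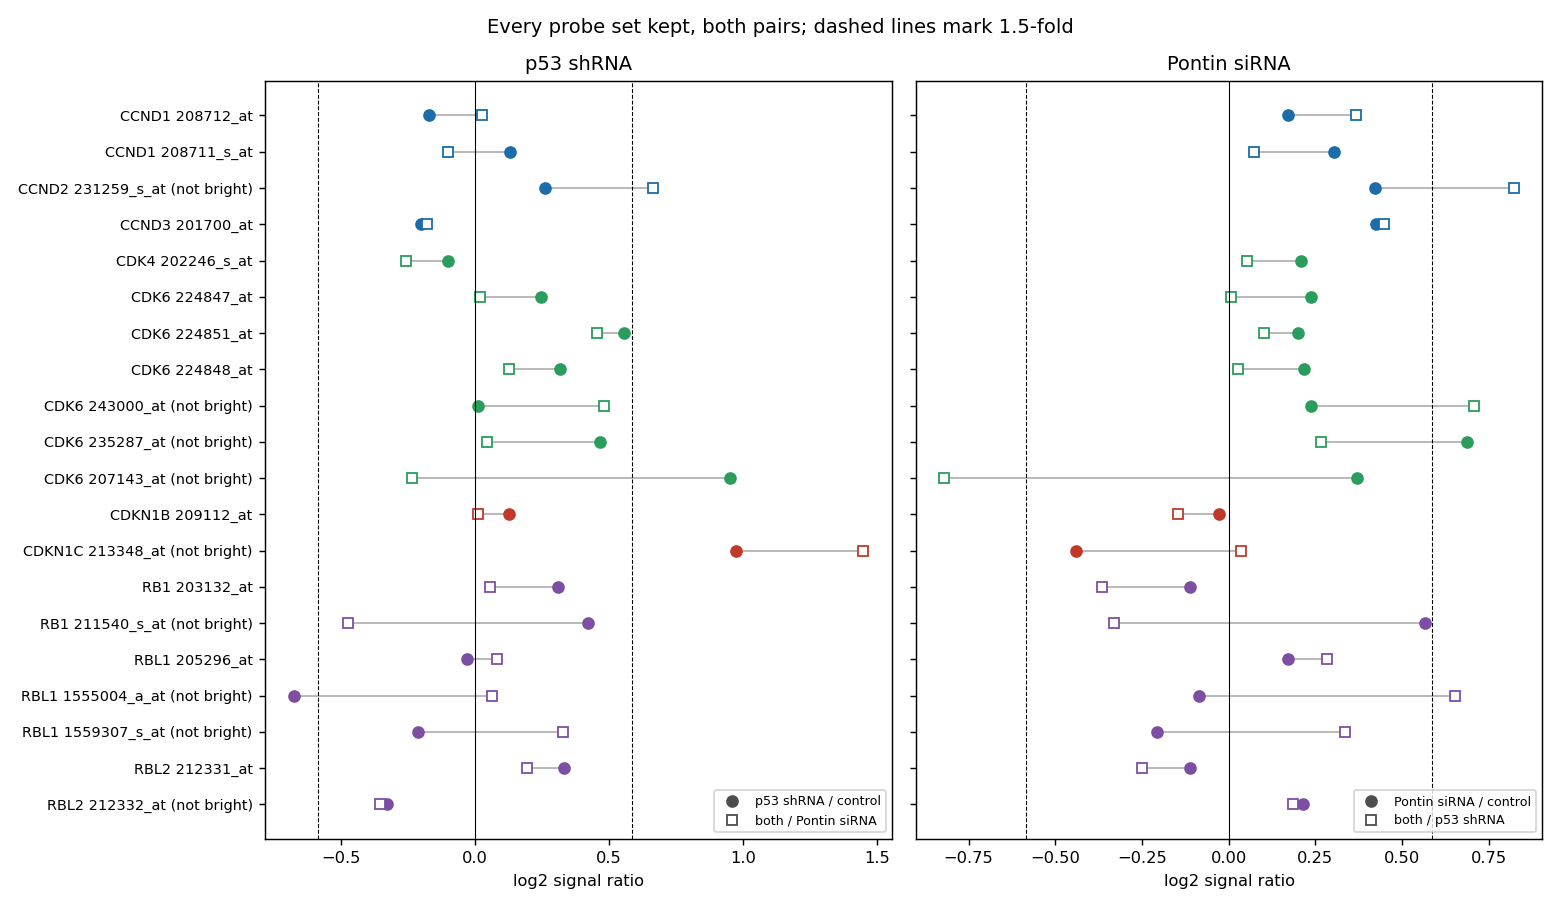
Log2 signal ratios (horizontal axes) of the 20 member probe sets kept, for p53 shRNA (left) and Pontin siRNA (right); filled circles are ratios to control, open squares ratios to the single knockdown named in the key, and dashed lines mark 1.5-fold. Only CDKN1C 213348_at lies beyond 1.5-fold in both p53 pairs, at 0.97 and 1.45, and the 2 pairs lie far apart mainly on probe sets that are not bright.

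Over all members, p53 shRNA gave 1 call higher and 0 lower among 20 probe sets kept. Of all 22776 probe sets kept, 2.16% were called for p53 shRNA, 1.29% higher and 0.869% lower, and of those that were kept and not bright, like the CDKN1C probe set, 2.5% were called higher. For Pontin siRNA 0 of 20 member probe sets were called, against 2.7% of all. With a looser rule, a log2 ratio of at least 0.32 in both pairs, CDK6 224851_at and CDKN1C were higher for p53 shRNA, 2 of 20 against 4.78% of all, and RBL2 212332_at was lower, 1 of 20 against 3.58%. For Pontin siRNA CCND3 and CCND2 were then higher, 2 of 20 against 5.82%. CCND2 had passed the filter only through the array with both knockdowns, and CDKN1C only through those with p53 shRNA. Counts this small are near the background. Without the array with both knockdowns, which leaves 1 pair for each knockdown, CDKN1C, CDK6 207143_at and RBL1 1555004_a_at passed 1.5-fold for p53 shRNA, 3 of 20 where 2256 of all 22776 did, and CDK6 235287_at passed for Pontin siRNA, 1 of 20 where 2222 did. An additive limma fit took the 2 pairs as replicates, so its error was the departure from additivity. After Benjamini-Hochberg adjustment it called 0 probe sets of any gene for either knockdown. RUVBL1, the siRNA target, was thus missed as well, at Pontin ratios of -1.91 and -2.60. With 1 array per group the fit cannot show an absence of change. At an unadjusted p under 0.05 it gave 3 of 20 members and 2163 of all for p53 shRNA, and 2 of 20 and 2807 of all for Pontin siRNA, the same probe sets as the looser rule.

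The median of the mean log2 ratio was 0.10 over the 20 member probe sets for p53 shRNA, where it was 0.00 over all probe sets kept. For Pontin siRNA it was 0.14, against 0.02. Among the 11 bright member probe sets, those of CCND1, CCND3, CDK4, CDK6 and RBL1, 8 in all, were above 0 in both Pontin pairs, against 34.8% of all bright probe sets. The bright probe sets of CDKN1B, RB1 and RBL2 were below 0 in both, 3 of 11 against 34.8%. For p53 shRNA 6 of 11, those of CDK6, CDKN1B, RB1 and RBL2, were above 0 in both pairs, against 29.4%, and CCND3 and CDK4 were below 0 in both, against 35.5%. These signs depend on the scaling, and over all 20 probe sets and both knockdowns 10 of 40 mean ratios changed sign under at least 1 other scaling. For 7 of the 10 this was median centring alone, which shifts all probe sets alike and leaves the members as far above the median of all as before. They were the same in number after quantile and cyclic loess normalization. Centring each array on its median moved the median of all bright probe sets to -0.14 for p53 shRNA and -0.17 for Pontin siRNA, and left 2 of 11 above 0 in both Pontin pairs, where 7.48% of all bright probe sets were, and 1 of 11 in both p53 pairs, against 6.83%. CCND3 kept positive Pontin ratios there, 0.37 and 0.15. The 11 bright member probe sets include 3 of CDK6 and 2 of CCND1, and probe sets of 1 gene are not independent of each other.

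With both knockdowns against control, 5 of 20 member probe sets differed by at least 1.5-fold, where 14.6% of all did. They were CCND2 at 1.09, CDKN1C at 1.01, and 3 CDK6 probe sets at 0.66 to 0.73, all of them higher. Only CDK6 224851_at among them was bright, and 5.68% of bright probe sets differed that far. Of all 3315 probe sets kept that did, 690 were bright, so most were dim like the other members here. The array with both knockdowns had the highest median signal, 19.6, and how many of all were higher was not counted. CCND3 was at 0.25, CCND1 at 0.20 on each probe set, and RB1 at -0.06. The departure from additivity, the log2 signal with both knockdowns minus the single knockdowns plus the control, reached 1.5-fold on 3 of 20 member probe sets and 0 of 11 bright ones, against 16.2% and 3% of all. It was 0.02 for CCND3, -0.10 for CDK6 224851_at and 0.48 for CDKN1C.

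Other genes of the pathway, in 4 lists, were read at their brightest probe sets. Of 46 genes kept, 0 were called for p53 shRNA, where 2.24% of all genes were, and 1 was called for Pontin siRNA, lower, where 2.4% of all genes were called and 1.24% were lower. That gene was FBXW8, which encodes an F-box protein of a ubiquitin ligase, with signals of 33.4, 23.6, 15.9 and 14.4 in the order control shRNA, p53 shRNA, Pontin siRNA and both. Its Pontin ratios were -1.07 and -0.71.

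E2F, DP and DREAM genes had a median of -0.15 for p53 shRNA, where the median of all genes was 0.00. Of 16 genes, 9 were below 0 in both pairs, against 32.2% of all genes, and 3 were above, against 30.6%. The atypical E2F gene E2F8 had signals of 466.2 in control cells, 341.8 under p53 shRNA, 456.7 under Pontin siRNA and 352.6 under both, p53 ratios of -0.45 and -0.37. TFDP1, the dimer partner of E2F factors, had 2876.3, 2344.7, 3027.7 and 2525.7, ratios of -0.29 and -0.26. In both genes the 2 arrays with p53 shRNA were below the 2 without. The other TFDP1 probe sets gave -0.06 and -0.38, and 0.05 and -0.04. E2F1, the activator of S-phase genes, had low signals of 57.1, 35.8, 61.1 and 50.8, p53 ratios of -0.67 and -0.27, and -0.43 and 0.18 on its other probe set. For Pontin siRNA the list median was 0.06. E2F3, another activator, then had ratios of -0.41 and -0.46, E2F5, a partner of RBL2, -0.33 and -0.26, and MYBL2, a subunit of the MuvB complex in cycling cells, 0.37 and 0.43.

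Among the G1/S cyclins, kinases and activators, 9 genes kept, the medians were -0.09 for p53 shRNA and -0.10 for Pontin siRNA. CCNE2, the gene of cyclin E2, had signals of 245.2 in control cells, 227.9 under p53 shRNA, 188.7 under Pontin siRNA and 160.4 under both. Its Pontin ratios were -0.38 and -0.51, and on its dimmer probe set 0.13 and -0.45. CCNA2, the gene of cyclin A2, had Pontin ratios of -0.34 and -0.47 on its brightest probe set but 0.05 and -0.18 on its other. CDC37, a kinase chaperone partner that folds CDK4, had 394.8, 361.2, 503.3 and 473.4, Pontin ratios of 0.35 and 0.39. The phosphatase gene CDC25A had p53 ratios of -0.45 and -0.28 on its brightest probe set, -0.15 and -0.18 on the next and -0.50 and 0.37 on the dimmest. For p53 shRNA CCNE2 had -0.11 and -0.23 and CDC37 -0.13 and -0.09.

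Of 5 other CDK inhibitor genes 4 were annotated and kept, and the medians were 0.24 for p53 shRNA and -0.33 for Pontin siRNA. CDKN1A, which encodes p21, had signals of 53.9 in control cells, 90.8 under p53 shRNA, 72.1 under Pontin siRNA and 104.5 under both. Both arrays with p53 shRNA were above both without, and the ratios of 0.75 and 0.54 missed the rule in the second pair. Its Pontin ratios were 0.42 and 0.20. The INK4 genes CDKN2B and CDKN2D, inhibitors specific to CDK4 and CDK6, were lowest with both knockdowns. CDKN2B had 44.1, 73.2, 34.1 and 30.5, and CDKN2D 89.4, 104.2, 69.2 and 51.9, with Pontin ratios of -0.37 and -1.26 and of -0.37 and -1.01. Neither was bright. CDKN2A, also an INK4 gene, had p53 ratios of 0.13 and 0.27 on its brightest probe set and was highest with both knockdowns, at 216.4. Its Pontin ratios were -0.04 and 0.10 there, and -0.49 and -0.66 on its other probe set kept.

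The 17 genes of D cyclin and p27 turnover and upstream control had medians of -0.01 for p53 shRNA and -0.04 for Pontin siRNA. AKT1, a kinase that restrains FOXO factors, had signals of 114.7 in control cells, 86.9 under p53 shRNA, 127.5 under Pontin siRNA and 74.4 under both. Its p53 ratios were -0.40 and -0.78. FOXO3, an activator of CDKN1B transcription, had p53 ratios of 0.20 and 0.24 on its brightest probe set. Its next probe sets gave 0.32 and 0.03, and 0.32 and 0.17, and its dimmest gave -0.09 and -0.05. COPS5, a signalosome subunit that binds p27, had p53 ratios of -0.20 and -0.26. For Pontin siRNA, AMBRA1, which directs D cyclins to degradation, had ratios of -0.22 and -0.09 on its brightest probe set but 0.03 and 0.21 on its other. FOXO3 had -0.11 and -0.07, and its next probe sets had pairs of opposite sign, 0.06 and -0.23, and 0.01 and -0.14. RNF123, a ligase for p27, had 0.07 and 0.21. Signs of the list medians relative to the median of all genes were mostly the same after quantile and cyclic loess normalization. The turnover list for p53 shRNA was the exception, at 0.00 from that median after quantile normalization. Median centring shifts all genes alike and cannot change these signs.

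**Figure D3:**
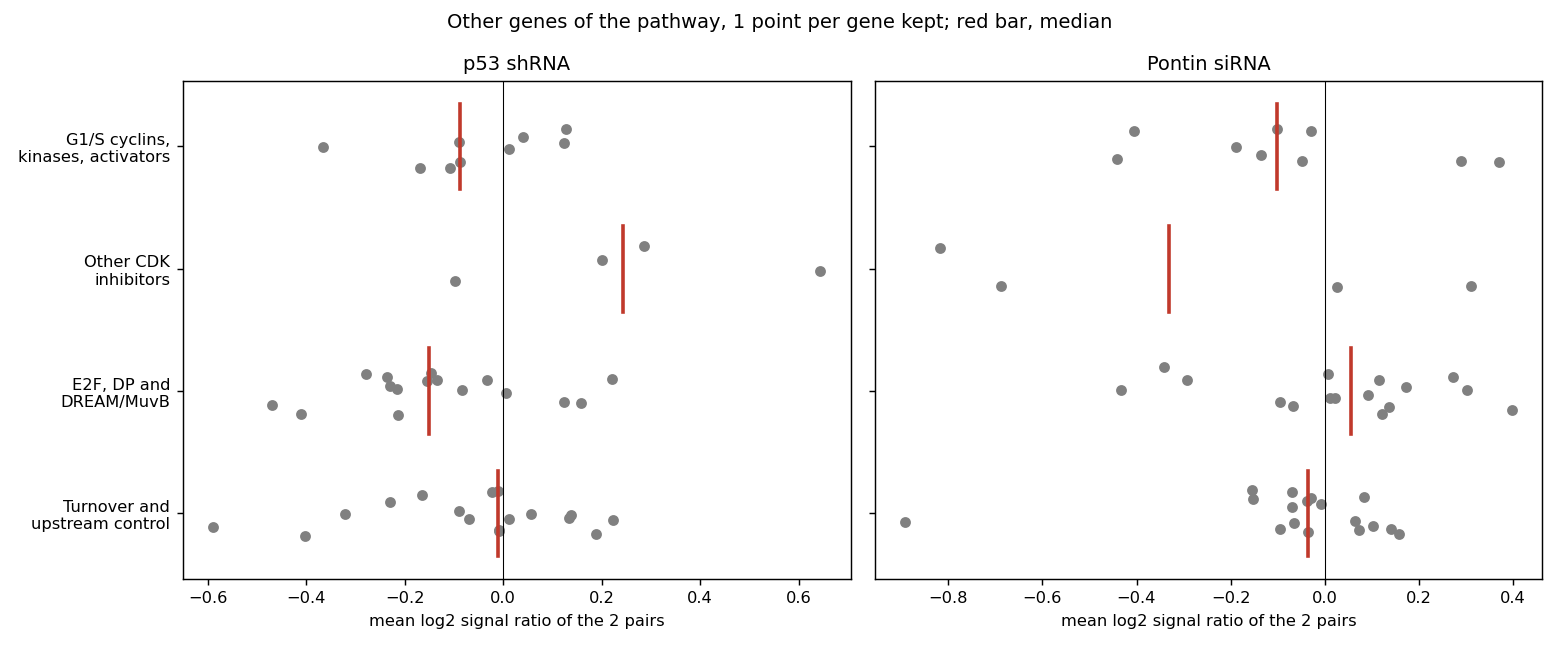
Mean log2 signal ratio of the 2 pairs (horizontal axes) for the 46 genes kept in the 4 lists, 1 grey point per gene at its brightest probe set, for p53 shRNA (left) and Pontin siRNA (right); red bars are list medians and the vertical spread is only for legibility. The E2F, DP and DREAM median for p53 shRNA is -0.15 and the median of the other CDK inhibitors for Pontin siRNA, from 4 genes, is -0.33.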

How the data were processed

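Total RNA, 200 ng per array, was labelled for 4 Affymetrix arrays of 54675 probe sets. The authors deposited MAS5 signal intensity values as per the submitters' processing notes, with no version, and these values are linear. Each array's mean without its lowest and highest 2% was 150.0, so a common scaling had been applied. Probe sets were named by GEO's platform annotation, whose symbols were brought up to date by Entrez gene number: 41097 had 1 symbol, 1801 several and 11777 none, and 41043 of the first matched the gene table.

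Signals were taken to log2 with no pseudocount, and 14 zeros were set to 0.1. Ratios and calls used Python 3.11.15 (pandas 2.3.3, numpy 2.4.6). Alternative normalizations and an additive fit used limma 3.58.1 in R 4.3.3. The call rule and the fit were tested on simulated arrays. For the call rule only bright probe sets were changed, so a dim change like that of CDKN1C was not simulated. For the fit the same spread was given to dim and bright probe sets. With 1 array per group no test was a main result, so the number of arrays sets the precision. The members and lists were chosen with earlier results of these data known. Named list genes were those called, then up to 3 per list and knockdown with the largest smaller-pair ratio of one sign. The p53 transcript is not reported here. Scanner files were not used here.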

Additional observations from a re-analysis of the deposited data

Results flagged for a closer look

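On 2 dim member probe sets the effect of a knockdown had opposite signs in the 2 pairs, by at least 0.32 in log2 each way. The difference was not tested, since each pair holds 1 array per group. RB1 211540_s_at was at 0.42 without and -0.47 with Pontin siRNA for the p53 shRNA, and at 0.57 without and -0.33 with p53 shRNA for the Pontin siRNA. CDK6 207143_at was at 0.37 without and -0.82 with p53 shRNA for the Pontin siRNA. Such opposite pairs made up 9.2% of probe sets kept and not bright for p53 shRNA and 8.62% for Pontin siRNA.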

How the results depend on the processing

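The single member call for p53 shRNA, CDKN1C, held under median centring, quantile and cyclic loess normalization. Leaving out probe set types s, x and a, or taking genes as the unit, could not change this call. The only kept CDKN1C probe set is of none of these types, so the same values were read again. All of these settings used the same filter, which CDKN1C passed only through its arrays with p53 shRNA. The member count became 0 with a pseudocount of 16, among bright probe sets, at 2-fold and in the limma fit (lowest adjusted p 0.515), 3 under the looser rule (0.32 in log2), 3 without the array with both knockdowns and 4 with no filter on signal. For Pontin siRNA the member count of 0 became 2 under the looser rule, 1 without the array with both knockdowns and 4 with no filter, and stayed 0 elsewhere (lowest adjusted p in limma 0.398). The limma fit did not call RUVBL1, the siRNA target, either.

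Over the whole array, 491 probe sets were called for p53 shRNA, and 616 for Pontin siRNA. These counts were 172 and 221 with the pseudocount, 4455 and 4636 with no filter, 68 and 154 for bright probe sets, 1905 and 2457 under the looser rule, 88 and 69 at 2-fold, 270 and 289 for genes at the brightest probe set, 254 and 239 for genes at the mean, 2256 and 2222 without the array with both knockdowns, and 0 and 0 with limma. Without types s, x and a the p53 count was 316. With no filter the counts were out of 41091 probe sets, 30 of them of members. Higher calls were 59.7% of those for p53 shRNA and 54.2% for Pontin siRNA as deposited, 32.4% and 20.0% after median centring, 44.9% and 31.8% after quantile and 45.8% and 33.5% after cyclic loess normalization. For these counts the cause was not tested, beyond fewer features or a changed threshold by construction.

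The member median for p53 shRNA was 0.10. It was -0.0275 after median centring, which moved the median of all probe sets to -0.13, so that the members lay 0.10 above it. It was 0.21 with no filter and 0.20 without types s, x and a, and 0.02 with genes at the mean over their probe sets, 0.02 above the median of all genes. For Pontin siRNA 0.14 became -0.0325 after median centring, 0.12 above the median of all. Mean ratios of single members at the brightest probe set changed sign in these cases. After median centring, RBL1 for p53 shRNA went from 0.03 to -0.10, CDKN1B for p53 shRNA from 0.07 to -0.06, CDK6 for Pontin siRNA from 0.12 to -0.05 and CDK4 for Pontin siRNA from 0.13 to -0.04. With the mean over kept probe sets, RBL1 for p53 shRNA was at -0.07, RBL2 for p53 shRNA went from 0.26 to -0.04 and RBL2 for Pontin siRNA from -0.18 to 0.01. Without the array with both knockdowns RBL1 for p53 shRNA was at -0.03.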
